A study of Mus musculus with 43 samples.

Results

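The genes described here encode 8 transporters of brain endothelial cells (EC): Slc2a1 for glucose, Slc16a1 and Slc16a4 of the monocarboxylate transporter family, Slc5a6, Slc19a3, Stra6 and Slc23a2 for vitamins, and Slc29a1 for nucleosides. They were taken by gene symbol from a table of 54532 genes, in which each symbol had exactly 1 row. All 8 passed the filter of 0.5 CPM (a gene's count scaled to the size of its library) in at least 1 library, as did 29120 genes in all. The study asked how brain vessels and their EC differ among inbred mouse strains. EC negative for CD45 and CD11b and positive for CD31 were sorted from cortex and hippocampus of mice aged 2 months, and their RNA was sequenced. The long-inbred strains 129S1/SvImJ (9 libraries), A/J (5), C57BL/6J (6), DBA/2J (5) and NOD/ShiLtJ (6) gave 31 libraries, and the wild-derived strains CAST/EiJ (6) and WSB/EiJ (6) gave 12. The 43 libraries comprised 16 from female and 27 from male mice, or 21 from cortex and 22 from hippocampus. Each title also carries the word high or low, which neither the labels nor the methods define. Among male mice 14 libraries are titled high and 13 low, whereas only 1 female library is titled low. No allele or treatment is given for any group, and the labels do not name the mouse, so p-values measure the spread between these libraries, which may share animals.

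The endothelium of brain vessels lacks the gaps through which solutes enter other tissues, so nutrients cross it on carriers in both cell membranes. The facilitative carrier GLUT1, encoded by Slc2a1, brings in glucose, the main fuel of the brain, while MCT1, encoded by Slc16a1, carries lactate, pyruvate and ketone bodies down their gradients together with protons. Vitamins that the brain cannot make enter on dedicated carriers, such as Slc19a3 for thiamine and Slc5a6 for biotin and pantothenate, and retinol bound to its plasma carrier protein is taken up by the receptor Stra6.

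Both monocarboxylate genes, like Stra6, passed the test among strains described below. The stretches directly before the annotated start of this related pair and of Slc2a1, the glucose carrier, are shown. They come from RefSeq for build GRCm38.p6, on the plus strand, 5′ to 3′. The stretch of Slc2a1 has 216 bases, because it ends where the GENCODE annotation starts the gene, ahead of the RefSeq start. The letters ACGTG that begin 36 bases before that RefSeq start run past its end and are not in capitals. Capitals mark 5 motifs, searched on both strands, so that reverse complements are capitals too. The E-box was searched as CACGTG. The core of the hypoxia response element was searched in both of its usual forms, which are ACGTG and the related form GCGTG. The TATA box was searched as TATAAA. The last motif was CCAAT. The E-box letters hold the first hypoxia form on either strand.
Slc2a1, chr4:119108495-119108710: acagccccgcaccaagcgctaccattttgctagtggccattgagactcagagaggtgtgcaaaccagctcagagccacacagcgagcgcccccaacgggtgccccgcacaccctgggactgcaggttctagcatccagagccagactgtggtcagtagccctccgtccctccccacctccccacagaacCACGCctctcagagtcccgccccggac
Slc16a1, chr3:104638414-104638663: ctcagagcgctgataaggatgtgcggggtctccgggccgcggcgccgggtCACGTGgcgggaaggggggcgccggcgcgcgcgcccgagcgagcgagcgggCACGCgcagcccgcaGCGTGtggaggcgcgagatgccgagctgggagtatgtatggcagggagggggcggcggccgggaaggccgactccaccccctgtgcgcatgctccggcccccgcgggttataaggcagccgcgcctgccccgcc
Slc16a4, chr3:107290980-107291229: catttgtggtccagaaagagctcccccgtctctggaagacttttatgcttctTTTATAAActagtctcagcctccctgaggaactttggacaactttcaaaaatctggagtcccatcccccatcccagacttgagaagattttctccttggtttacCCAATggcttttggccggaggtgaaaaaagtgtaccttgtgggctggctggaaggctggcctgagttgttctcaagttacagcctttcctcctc
In Slc16a1 the E-box began 200 bases before the RefSeq start. Of 32851 RefSeq windows covering the 250 bases before a start, 6.02% held CACGTG, 16.6% ACGTG, 28.2% GCGTG, 12.4% TATAAA and 33.8% CCAAT. In Slc16a4 the CCAAT letters began 94 bases before the start. These letters are those of the reference strain C57BL/6J. The sequences carried by the other strains were not analysed here.

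In the mm10 annotation (GENCODE release M21) the 8 genes are protein-coding and lie on 7 chromosomes. Slc16a1 (chr3:104638668-104658462, ENSMUSG00000032902) and Slc16a4 (chr3:107291230-107312115, ENSMUSG00000027896) are on chromosome 3, both on the plus strand and 2.63 Mb apart. Slc2a1 (ENSMUSG00000028645) spans chr4:119108711-119137983 and Stra6 (ENSMUSG00000032327) spans chr9:58063788-58153996, both on the plus strand. Slc5a6 (ENSMUSG00000006641, chr5:31036036-31048924), Slc19a3 (ENSMUSG00000038496, chr1:83012523-83038448), Slc29a1 (ENSMUSG00000023942, chr17:45585200-45599606) and Slc23a2 (ENSMUSG00000027340, chr2:132052496-132145108) are on the minus strand. Of the 8 genes, 7 overlap another annotated gene, Slc16a4 being the exception, and the sources used here do not state whether reads were counted by strand. The overlapping protein-coding genes were Atraid at Slc5a6, with a mean of 11.96 CPM, and Ccdc33 at Stra6, with a mean of 2.30 CPM.

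Libraries held 1626534 to 49372356 counts, with a median of 5790701, so low genes were measured least precisely in the small libraries. Reads on 3 rRNA-like genes made up 1.59% to 12.1% of female and 13.0% to 29.3% of male libraries, with no overlap. The summed level of 15 endothelial markers, among them Cldn5, Pecam1 and Cdh5, ran from 10623 to 20594 CPM, and all of them were detected in every strain. Other vascular and neural cells also left RNA in the libraries: the sum over 10 pericyte markers ran from 1953 to 9549 CPM and that over 9 astrocyte markers from 1046 to 18491 CPM, while 10 microglial markers summed to at most 152 CPM. In such bulk libraries, fewer cells of a type and less RNA per cell cannot be told apart.

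Per kilobase of exon, which allows genes to be compared, Slc2a1 had the highest level of the 8 genes, with 482 ± 149 CPM per kb (SD, n = 43 libraries), and ranked 33 of 29106 genes. Slc16a1 followed with 192 ± 116 CPM per kb, at rank 82. Slc2a1 was above Slc16a1 on this scale in all 43 libraries, including the 5 of A/J, where Slc16a1 was highest. Slc19a3 had 46.7 ± 17.2 CPM per kb, Stra6 21.1 ± 16.6 and Slc16a4 14.7 ± 8.51. The lowest were Slc23a2, the ascorbate transporter, with 6.57 ± 3.12 CPM per kb, Slc29a1, the equilibrative nucleoside transporter, with 4.81 ± 2.94, and Slc5a6 with 4.07 ± 2.66. The levels of neighbours in this order differed by less than the larger SD from Stra6 downwards. These levels rest on the annotated exon lengths, not on the transcripts present in EC.

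**Figure D1:**
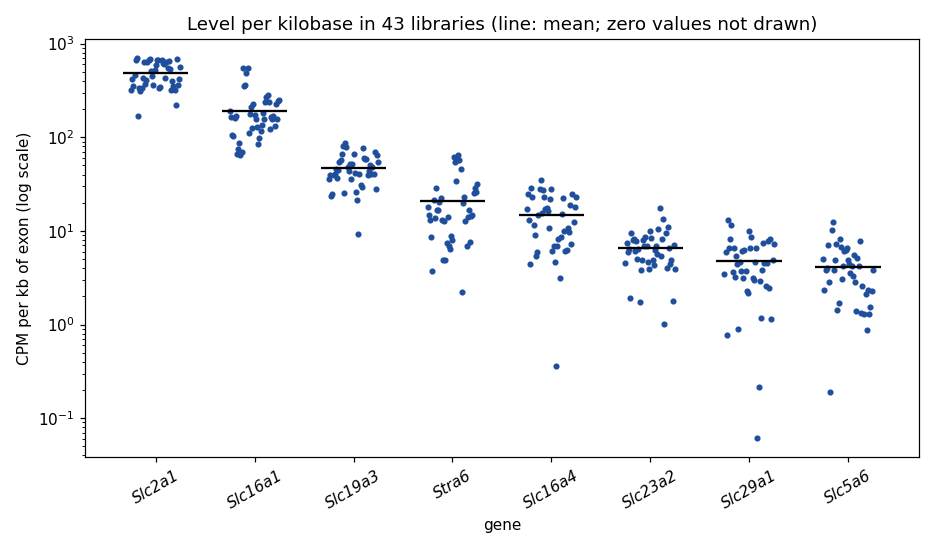
Level of each gene in CPM per kilobase of annotated exon (log scale) in the 43 libraries. Each point is a library and the line is the mean, which falls from 482 for Slc2a1 to 4.07 for Slc5a6. The single zero value, of Slc5a6, is not drawn.

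The main question was whether the carriers differed among strains. In the test of any difference among the 7 strains, 3 of the 8 genes passed an adjusted p of 0.05 (edgeR's quasi-likelihood test with Benjamini-Hochberg adjustment over all genes), against 2.68% of all 29120 genes: Slc16a1 (adjusted p = 2.9e-15), Stra6 (1.64e-06) and Slc16a4 (0.00835). From the lowest to the highest strain, the fitted levels spanned 2.67 on the log2 scale for Slc16a1, 2.67 for Stra6 and 2.22 for Slc16a4. Slc19a3 (adjusted p = 0.0593) and Slc2a1 (0.073) did not pass in this edgeR test, and Slc5a6, Slc29a1 and Slc23a2 had adjusted p of 0.724 to 0.826. Slc2a1 passed in edgeR with sex, region and title tag as covariates (adjusted p = 0.0244) and without the filter (0.0246). It also passed with counts drawn down to the smallest library (0.00103) and with legacy deviances (4.1e-08). Slc2a1 was not called by DESeq2, nor in edgeR with DESeq2 size factors or a stricter filter. With the rRNA-like share or the endothelial marker sum as a covariate it was not called either. The same held in male libraries, in either region alone and in libraries titled high. Slc16a4 was no longer called by edgeR in cortex alone (adjusted p = 0.932) or hippocampus alone (0.114), where 2 of the 8 genes were called. In the libraries of male mice alone, edgeR called the same number of these genes, 3.

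**Figure D2:**
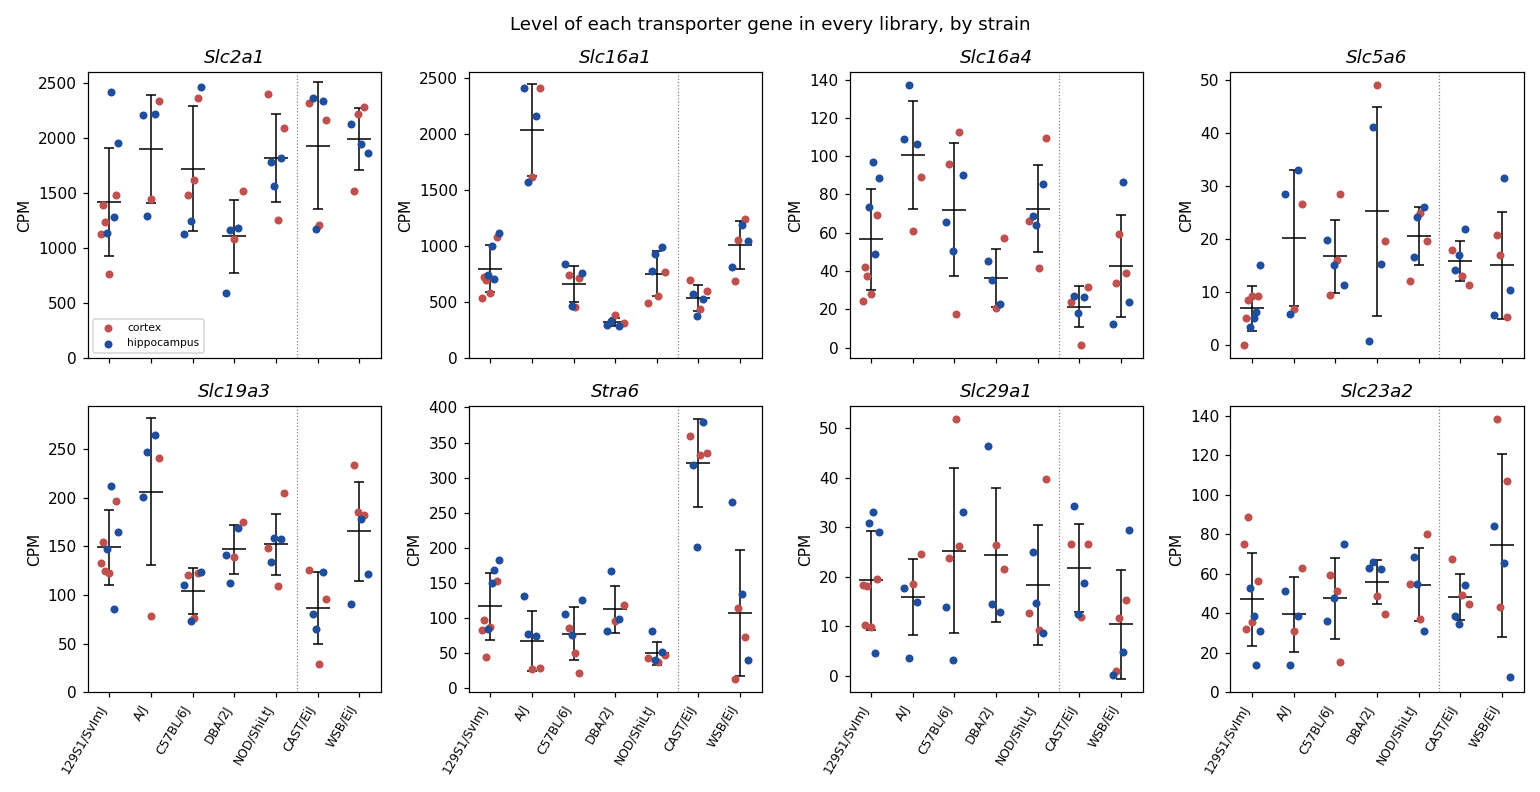
CPM of each gene (one panel per gene, each with its own linear axis) in every library, by strain. Points are libraries, red for cortex and blue for hippocampus, black bars give the mean ± SD of a strain, and the dotted line separates the long-inbred strains on the left from the wild-derived strains. Slc16a1 is set apart in A/J, where no library is below 1573 CPM, and Stra6 is highest in CAST/EiJ.

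Mean levels of Slc2a1 ran from 1995 ± 281 CPM (SD, n = 6) in WSB/EiJ through CAST/EiJ (1932 ± 576, n = 6), A/J (1902 ± 490, n = 5), NOD/ShiLtJ (1820 ± 400, n = 6), C57BL/6J (1721 ± 568.3, n = 6) and 129S1/SvImJ (1421 ± 492, n = 9) to DBA/2J (1106 ± 334, n = 5). Each strain overlapped its neighbours in this order, and neighbouring means differed by less than the larger SD. The strains at the ends did not overlap, since WSB/EiJ had no library below 1521 CPM and DBA/2J none above 1515 CPM. These strains were picked as the ends once the means were known. The share of all genes whose end strains are separated in this way was not counted. The DBA/2J libraries stood at 587, 1081, 1166, 1180 and 1515 CPM. The lowest of them, from female hippocampus, was the lowest of all 43 libraries. The difference of DBA/2J from the mean of the other strains was -0.69 ± 0.18 on the log2 scale (SE), with an adjusted p of 0.104 in edgeR.

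Slc16a1 gave the clearest strain pattern. The 5 A/J libraries had 2405 CPM in female hippocampus, 2162 and 1573 CPM in male hippocampus titled high and low, and 2406 and 1617 CPM in male cortex titled high and low. All 5 lay above every library of the other strains, of which the highest, a WSB/EiJ library, had 1241 CPM. Only 0.0172% of all genes were above every other library in A/J in this way. A/J exceeded the mean of the other strains by 1.67 ± 0.14 on the log2 scale (SE, adjusted p = 1.1e-14, edgeR), where 0.254% of genes were called in either direction. Astrocyte markers were also high in A/J: 2 of the 9 were called higher by edgeR, Slc1a3 by 1.42 (adjusted p = 0.000926) and Slc1a2 by 1.29 (0.0224), and the astrocyte sum ran from 2649 to 18491 CPM there against 1046 to 8823 CPM in the other strains. Over the 43 libraries this sum had a Spearman correlation of 0.082 with Slc16a1. The part of astrocyte RNA in the Slc16a1 difference was not tested.

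The opposite end of the range was DBA/2J, with Slc16a1 at 288, 293, 307, 330.0 and 382 CPM. Of these 5 libraries 4 were below every library of the other strains, the lowest of which had 375 CPM, and the fifth overlapped CAST/EiJ alone. For 0.00343% of all genes every DBA/2J library was below all others, a rule that Slc16a1 did not meet. The share of genes with 4 such libraries was not counted. The DBA/2J difference was -1.44 ± 0.18 (SE, log2 scale, adjusted p = 1.54e-07, edgeR), in a comparison that called 0.192% of genes. With cortex libraries only, of which DBA/2J has 2, it was -1.27, with an adjusted p of 0.442 in edgeR.

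CAST/EiJ was the next strain, with Slc16a1 levels from 375 to 700 CPM around a median of 544. It was lower than the mean of the other strains by -0.59 ± 0.16 (SE, log2 scale, adjusted p = 0.0316, edgeR), where 1.35% of genes were called. Without any 1 of its 5 libraries other than that of female cortex, the edgeR call was lost, with values from -0.62 to -0.50 and adjusted p of 0.0539 to 0.178. It was lost too in cortex alone (-0.41, adjusted p = 0.744), hippocampus alone (-0.79, 0.0936) and libraries titled high (-0.49, 0.301). The other wild-derived strain went the other way: WSB/EiJ had 691 to 1241 CPM with a median of 1052, with the second highest mean after A/J. Its difference from the other strains, 0.49 ± 0.14 (SE, adjusted p = 0.0491, edgeR, with 2.41% of genes called), was at the threshold, and the call was lost in 33 of the 43 fits that left out 1 library. The direct test of CAST/EiJ minus WSB/EiJ gave -0.92 ± 0.20 for Slc16a1 (SE, log2 scale, adjusted p = 0.00314, edgeR), and 1.22% of genes were called. It remained called in each of 43 fits without 1 library, but was lost in cortex alone (-0.78, adjusted p = 0.584), in hippocampus alone (-1.08, 0.0568) and in libraries titled high (-0.66, 0.142). The long-inbred strains between these had means of 796 ± 212 CPM (SD, n = 9) in 129S1/SvImJ, 752 ± 199 (n = 6) in NOD/ShiLtJ and 661 ± 159 (n = 6) in C57BL/6J, which overlapped each other.

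Slc16a4, whose substrates are less well known than those of MCT1, was also highest in A/J, with 60.7, 88.9, 107, 109 and 137 CPM. The A/J difference was 1.12 ± 0.32 (SE, log2 scale) and did not pass in edgeR (adjusted p = 0.114). The lowest strain was CAST/EiJ, with 1.39, 18.2, 23.8, 26.4, 26.9 and 31.9 CPM. The first of these, male cortex titled low, was 5 counts. The other strains reached from 12.2 to 137 CPM, so that they overlapped CAST/EiJ. CAST/EiJ was lower than the mean of the other strains by -1.47 ± 0.36 (SE, log2 scale, adjusted p = 0.0136, edgeR). Without its male cortex library titled low, the difference was -1.23 with an adjusted p of 0.072, and without its male hippocampus library titled low it was -1.43 with an adjusted p of 0.0523, both in edgeR. The call was also lost in cortex alone (-1.53, adjusted p = 0.615), hippocampus alone (-1.42, 0.234) and libraries titled high (-1.20, 0.119). WSB/EiJ had 12.2 to 86.5 CPM with a median of 36.4. The difference of CAST/EiJ from WSB/EiJ, -0.98 ± 0.43, did not pass (adjusted p = 0.438, edgeR).

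Across the 43 libraries, Slc16a1 and Slc16a4 had a Spearman correlation of 0.63, the highest of any pair among the 8 genes. Both also went with the thiamine transporter Slc19a3, at 0.49 and 0.56. These values describe libraries that share strains and title tags.

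**Figure D3:**
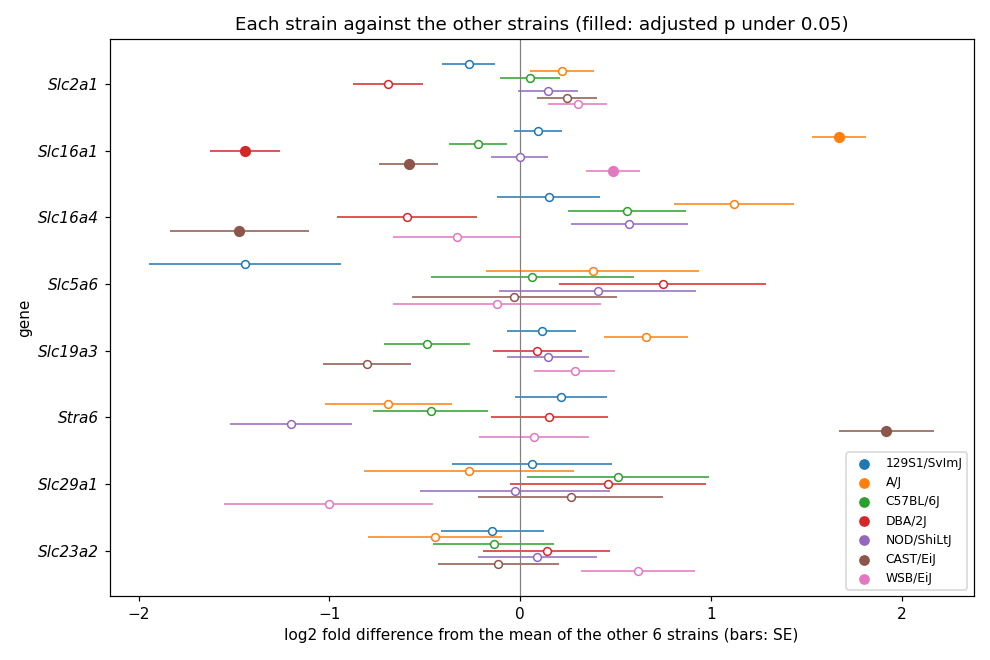
Fitted log2 fold difference of each strain from the mean of the other 6 strains, with SE bars, for each gene (vertical axis). Filled points passed an adjusted p of 0.05 and open points did not: Slc16a1 in A/J, DBA/2J, CAST/EiJ and WSB/EiJ, Stra6 in CAST/EiJ and Slc16a4 in CAST/EiJ are filled.

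Among the vitamin carriers, Stra6 stood out in CAST/EiJ. The 6 libraries of this strain had 201 CPM in male hippocampus titled low, 317 in female hippocampus, 332 in male cortex titled low, 335 in male cortex titled high, 359 in female cortex and 379.6 in male hippocampus titled high. Of these, 5 were above every library of the other strains, whose highest value was 265 CPM in female hippocampus of WSB/EiJ. For 0.216% of all genes every CAST/EiJ library was above all others, a rule that Stra6 did not meet. The share of genes with 5 such libraries was not counted. CAST/EiJ exceeded the mean of the other strains by 1.92 ± 0.25 (SE, log2 scale, adjusted p = 4.17e-08, edgeR), and this was called in each fit that left out 1 library. The other strains had means between 50.2 ± 16.5 CPM (SD, n = 6) in NOD/ShiLtJ and 117 ± 47.6 (n = 9) in 129S1/SvImJ, and each overlapped the next.

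WSB/EiJ was widely spread for Stra6, with 13.0, 39.9, 73.8, 115, 134 and 265 CPM. Its highest and lowest values both came from female mice, the first from hippocampus and the other from cortex, where 30 counts were seen. CAST/EiJ exceeded WSB/EiJ by 1.58 ± 0.39 (SE, log2 scale, adjusted p = 0.0152, edgeR). Without the male hippocampus WSB/EiJ library titled high the difference was 1.42, with an adjusted p of 0.0591, and in hippocampus alone it was 1.02, with an adjusted p of 0.619.

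The sum of the 10 pericyte markers was lowest in CAST/EiJ, from 1953 to 2986 CPM, against 4793 to 9549 in WSB/EiJ and 2428 to 8375 in the long-inbred strains, and it had a Spearman correlation of -0.53 with Stra6 over the 43 libraries. Its part in the Stra6 difference was not tested. When the endothelial marker sum entered the fit, an alternative added once the data had been seen, Slc16a1, Stra6 and Slc16a4 were all still called in the test among strains. All reads were aligned to the C57BL/6J genome, and the part of alignment in the levels of the wild-derived strains was not tested.

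Slc19a3 had its highest mean in A/J, 206 ± 75.3 CPM (SD, n = 5), and its lowest in CAST/EiJ, 86.4 ± 37.0 (n = 6). Every pair of neighbouring strains overlapped. The difference of CAST/EiJ was -0.80 ± 0.23 (SE, log2 scale, adjusted p = 0.0604, edgeR). The overall strain test for Slc19a3 was called by DESeq2 (adjusted p = 0.0028) and in edgeR with sex, region and tag as covariates (0.00719), but not in the main edgeR test. In edgeR it was also called with DESeq2 size factors (adjusted p = 0.0352), no filter (0.0428), a stricter filter (0.0278) and legacy deviances (0.0126). With the rRNA-like share (0.0468) or the endothelial sum (0.0111) as a covariate it was called too. It was not called with counts drawn down, in male libraries, in either region alone or in libraries titled high. Slc5a6 was low throughout, with means from 25.2 ± 19.7 CPM (SD, n = 5) in DBA/2J to 6.90 ± 4.28 (n = 9) in 129S1/SvImJ. It was not detected in the female cortex library of 129S1/SvImJ titled low, where 3 counts would be 0.108 CPM, and the 5 DBA/2J libraries ran from 0.752 to 49.1 CPM. Slc23a2 had means from 74.3 ± 46.2 CPM (SD, n = 6) in WSB/EiJ to 39.5 ± 18.9 (n = 5) in A/J, and the WSB/EiJ libraries alone covered 7.97 to 138 CPM.

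Slc29a1, which lets adenosine and other nucleosides through in either direction, had means from 25.3 ± 16.7 CPM (SD, n = 6) in C57BL/6J to 10.4 ± 11.1 (n = 6) in WSB/EiJ. Both female WSB/EiJ libraries were at or under the floor of 3 counts, with 1 count (0.244 CPM) in hippocampus and 2 counts (0.865 CPM) in cortex. The male libraries of this strain reached 29.4 CPM. No strain was called against the others for Slc5a6, Slc23a2 or Slc29a1 in edgeR. Of the 8 genes 0 were called in 129S1/SvImJ, C57BL/6J and NOD/ShiLtJ, each against the other strains, where 1.46%, 0.529% and 0.185% of all genes were called by edgeR, and in each of these comparisons 1 of the 8 had an unadjusted p under 0.05.

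The study grouped strains by origin. In the comparison of wild-derived minus long-inbred strains, 1 of the 8 genes was called, Stra6, against 0.749% of all genes. Stra6 had 12.97 to 379.6 CPM in wild-derived strains (median 233, n = 12) and 21.7 to 183 CPM in long-inbred strains (median 83.1, n = 31), so the groups overlapped. The difference was 1.29 ± 0.25 (SE, log2 scale, adjusted p = 0.00107, edgeR). Without CAST/EiJ it was 0.29 ± 0.34, with an adjusted p of 0.802, and without WSB/EiJ it was 1.85 ± 0.25, with an adjusted p of 4.57e-07. In cortex alone it was 1.57 (adjusted p = 0.0716) and in hippocampus alone 1.07 (0.113), neither of them called by edgeR, and with counts summed per strain 1.46 (0.3).

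Slc16a4 had a median of 26.6 CPM in wild-derived strains (1.39 to 86.5, n = 12) and 65.8 CPM in long-inbred strains (17.4 to 137, n = 31). The difference of -1.06 ± 0.29 (SE, log2 scale) fell just outside the threshold in edgeR (adjusted p = 0.0542), whereas DESeq2 gave -1.09 with an adjusted p of 0.0138. Over 21 alternatives other than leaving out a library, 11 called Slc16a4, all with the same sign. Without CAST/EiJ the difference was -0.65 (adjusted p = 0.601, edgeR). Slc2a1 had 0.31 ± 0.14 (adjusted p = 0.572, edgeR), and the other 5 genes had adjusted p of 0.754 to 0.945. The test of a different origin effect in the 2 regions called 0% of genes, with Stra6 at -0.51 ± 0.52 (adjusted p = 1).

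None of the 8 genes was called between hippocampus and cortex, where 0.0755% of genes were. No member had an unadjusted p under 0.05 in this edgeR comparison, and DESeq2 called none either. Slc2a1 differed by 0.01 ± 0.13 on the log2 scale (SE), with means of 1695 ± 540.0 CPM (SD, n = 22) in hippocampus and 1683 ± 514 (n = 21) in cortex. Of the 18 sets of the same strain, sex and title tag that had both regions, Stra6 was higher in hippocampus in 14, with a fitted difference of 0.36 ± 0.27 (adjusted p = 0.669, edgeR). Slc16a1 was higher in hippocampus in 10 of these 18 sets.

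The comparison of the title tags was made in the 27 male libraries. Slc2a1 was the only one of the 8 genes called, being higher in libraries titled high, against 1.06% of all genes called and 0.294% called higher. Its levels ran from 1180 CPM through a median of 2131 to 2470 in the 14 libraries titled high, and from 1081 through 1283 to 2219 in the 13 titled low. In 6 of the 7 strains every library titled high was above those titled low, while in WSB/EiJ the ranges of 1869 to 2288 and 1945 to 2219 CPM overlapped. Each strain had at most 2 male libraries per tag, and the share of all genes separated in this way was not counted. Slc16a1, Slc16a4 and Slc19a3, which were not called, were each separated in this way in 4 of the 7 strains. The Slc2a1 difference was 0.50 ± 0.11 (SE, log2 scale, adjusted p = 0.00551, edgeR) and it was positive in 12 of the 13 sets of the same strain and region. The exception was WSB/EiJ hippocampus, at 1869 against 1945 CPM. Within cortex it was 0.47 (adjusted p = 0.41) and within hippocampus 0.52 (0.378), both uncalled by edgeR with fewer libraries.

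**Figure D4:**
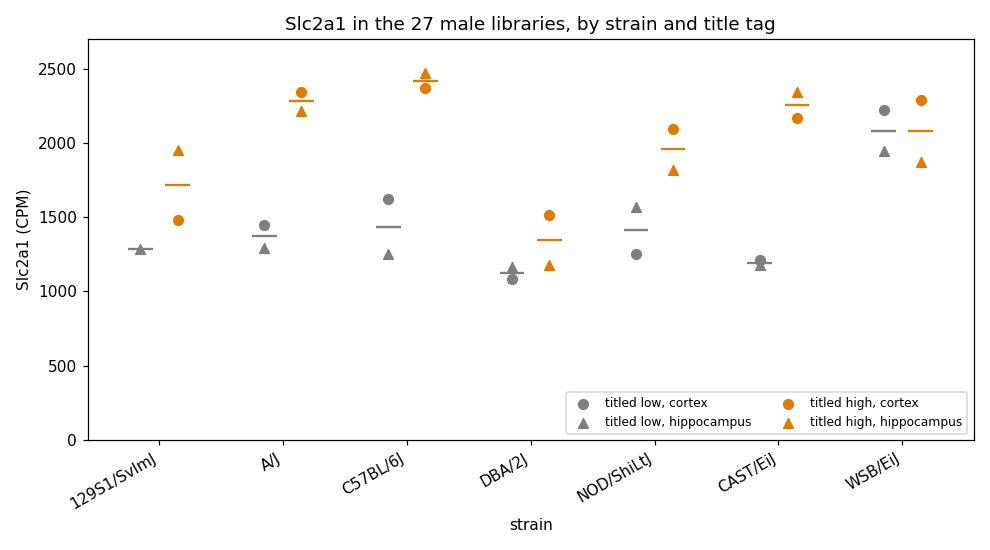
CPM of Slc2a1 (linear axis from 0) in the 27 libraries of male mice, by strain (horizontal axis), with libraries titled low in grey and high in orange. Circles are cortex, triangles are hippocampus, and short lines are means. In CAST/EiJ the means are 2255 CPM (high) and 1194 CPM (low), and in WSB/EiJ 2078 and 2082 CPM.

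Cell type markers moved with the title tag. Among the 15 endothelial markers Cldn5 and Esam rose and Erg fell in libraries titled high. Their sum was 14342 to 20594 CPM with a median of 18408 there, against 15141 to 18002 CPM with a median of 16395 in those titled low. Map2, Nefl and Snap25 were the 3 of 9 neuronal markers that fell, with a summed level of 211 to 779 CPM against 401 to 1094. Of the 9 astrocyte markers Slc1a2 and S100b fell, the sums being 1379 to 7065 and 2994 to 18491 CPM. Of the 10 pericyte markers Rgs5 fell, while Hbb-bs and Hba-a2 of 5 red blood cell genes rose. With the endothelial sum as a covariate in edgeR, Slc2a1 had a difference of 0.35 ± 0.11 and was no longer called (adjusted p = 0.206). Taken as a share of the endothelial marker sum, Slc2a1 was higher by 0.38 on the log2 scale in libraries titled high (two-sided permutation test over libraries, p = 0.0013, or 0.00217 adjusted over 5 measures). Both the covariate fit and the share were chosen after seeing the data. Their adjusted p-values cannot be compared, since the first was adjusted over 21114 genes and the second over 5 measures. The permutation did not keep libraries within their strain and region. The part of the other cell types was not tested.

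The other members did not pass the test of the title tag. Slc19a3 had 167 ± 48.4 CPM (SD, n = 14) in libraries titled high and 118 ± 60.6 (n = 13) in those titled low, a difference of 0.51 ± 0.20 (SE, log2 scale, adjusted p = 0.374, edgeR). With strain and region as covariates it was 0.61, with an adjusted p of 0.0303. Slc16a1 was higher in libraries titled high in 10 of the 13 sets, with a difference of 0.38 ± 0.23 (adjusted p = 0.651, edgeR). The interaction of title tag and strain for Slc2a1 had an unadjusted p of 0.0165 and an adjusted p of 0.997 in edgeR, which called 0.0981% of genes.

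Between the sexes none of the 8 genes was called, while 2.85% of all genes were. DESeq2 called none of them, and 1 had an unadjusted p under 0.05 in edgeR, Slc5a6. This gene had 11.1 ± 8.02 CPM (SD, n = 16) in female and 19.3 ± 10.9 (n = 27) in male libraries, with a female minus male difference of -0.80 ± 0.39 (SE, log2 scale, adjusted p = 0.359, edgeR). With the rRNA-like share as a covariate the sign turned, to 0.10. Since the rRNA-like share separates the sexes, its part and that of sex cannot be told apart. Strain was mixed with sex as well. 129S1/SvImJ, the strain with the lowest mean of Slc5a6, gave mostly female libraries and the other strains mostly male ones.

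Of the 110 other genes of the same pathways, 106 were tested, and 6 (5.66%) were called in the test among strains, against 2.68% of all genes. None of the 12 hexose transporters tested, 15 monocarboxylate transporters and chaperones or 21 genes of water-soluble vitamin transport was among these 6. In glycolysis and lactate metabolism 1 of 19 genes was called, Ldha, a subunit of lactate dehydrogenase (adjusted p = 0.00202, edgeR). Ldha had 195 ± 44.8 CPM in A/J (SD, n = 5) and 59.7 ± 37.8 in WSB/EiJ (n = 6), the latter lower than the other strains by -1.09 (adjusted p = 0.015). Its mean in NOD/ShiLtJ, 185 ± 47.4 CPM (n = 6), was within the SD of that in A/J.

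In nucleoside handling 2 of 15 genes were called. Entpd1, which breaks down extracellular ATP and ADP, had 3.90 to 21.4 CPM in WSB/EiJ and 36.7 to 214 CPM across the other strains, with no overlap. Of all genes, 0.0137% were below every other library in WSB/EiJ in this way. The Entpd1 difference in WSB/EiJ was -3.35 on the log2 scale (adjusted p = 3e-11, edgeR), where 2.41% of genes were called. In A/J Entpd1 was called higher than in the other strains, by 1.04 (adjusted p = 0.048, edgeR), where 0.254% of genes were called. Ada, adenosine deaminase, was detected in DBA/2J, with up to 19.0 CPM, and hardly elsewhere, with at most 0.0347 CPM. In retinoid handling 3 of 24 genes were called. Aldh1a1, which makes retinoic acid, had its highest mean in NOD/ShiLtJ, 100.1 ± 38.7 CPM (SD, n = 6), although a WSB/EiJ library reached 139 CPM. Bco2, which cleaves carotenoids, had its highest mean in CAST/EiJ, 9.83 ± 7.57 CPM (n = 6), the strain in which Stra6 was highest. It was called higher by edgeR in CAST/EiJ (4.87 on the log2 scale, adjusted p = 0.00383). The same held in 129S1/SvImJ (3.96, adjusted p = 0.0286, edgeR), where Stra6 was not called. Ttr, the plasma carrier of retinol binding protein and also a marker of choroid plexus, reached 388 CPM in 1 NOD/ShiLtJ library with a median of 13.0 in that strain.

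In the 7 comparisons of 1 strain with the rest, pathway genes not named above were called too. Slc16a12 was called in WSB/EiJ, with 5.83 to 112 CPM there (adjusted p = 0.0232, edgeR). Adora2b was called in WSB/EiJ, with a median of 0 and a highest value of 30.7 CPM. Slc5a7 was called in A/J, with a median of 0 and a highest value of 20.4 CPM. In the last case few libraries carried the signal. The title tags were also compared for these genes. Bsg, basigin, the chaperone that MCT1 needs to reach the membrane, was higher in libraries titled high by 0.56 (adjusted p = 0.00387), with means of 6084 ± 1905 CPM (SD, n = 14) and 4147 ± 866 (n = 13). Aldoc, an aldolase typical of astrocytes, had a difference of -1.12 (adjusted p = 0.00387), both in edgeR. Between the sexes, Bsg was higher in female libraries, with 6184 to 15480 CPM against 2750 to 8767 (adjusted p = 1.07e-09, edgeR), and so was Ttr (0.0317). None of the 106 genes was called by origin or region in edgeR, where 0.749% and 0.0755% of all genes were.

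Genes whose levels over the 43 libraries were most like those of a member were sought among 10641 other genes with a mean of at least 5 CPM. For Slc2a1 these were Robo4, an endothelial receptor and one of the 15 endothelial markers (Spearman 0.86), S1pr1, a receptor for sphingosine-1-phosphate (0.80), and Lamb2, a laminin chain (0.79). Slc2a1 also had correlations of 0.76 with the endothelial and -0.61 with the neuronal marker sum. The closest gene to Stra6 was Acacb, an acetyl-CoA carboxylase (0.79), which like Stra6 had its highest mean in CAST/EiJ, 249 ± 21.5 CPM (SD, n = 6), followed by Gm9625 (0.62) and Eogt (0.60). Slc16a1 was most like F5, coagulation factor V (0.68), which had 71.2 ± 27.3 CPM in A/J (n = 5), then Slc7a3 (0.63) and Gbp9 (0.62). Slc16a4 was most like Ifitm3 (0.75), Ly6c1 (0.68) and Slfn2 (0.67). For Slc5a6, Slc19a3, Slc29a1 and Slc23a2 the highest values were 0.61 with Tgfa, 0.61 with Prkaa1, 0.64 with Ifi35 and 0.53 with Fam160b2. These are descriptions over libraries that share strain, title tag and depth.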

How the data were processed

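Per the labels and the study's methods, the authors depleted rRNA from total RNA of sorted EC, made stranded libraries, sequenced single ends, aligned reads to mm10 with HISAT2 2.1.0, used SAMtools 1.9, and summarized counts per gene with featureCounts of Subread 1.4.4. They deposited raw counts, with no normalization. Here edgeR 4.0.16 under R 4.3.3 applied TMM scaling, and genes were kept at 0.5 CPM in at least 1 library and tested with its two-sided quasi-likelihood test, without covariates, with Benjamini-Hochberg adjustment over all genes at 0.05. In fits with covariates, genes whose fitted count exceeded 5 times their highest count were left out. DESeq2 1.42.0 served as the alternative. The bias-adjusted deviances and trended dispersion were settled in earlier work after calls had been seen. Libraries held 1626534 to 49372356 counts, and 3 counts were taken as the floor, which covers counting error only. No 2 libraries were identical (0 pairs). Other alternatives were scaling, filters, covariates, counts drawn down to the smallest library, subsets, and each library or strain left out. Permutation tests drew 100000 resamples (scipy 1.17.1). The 8 genes, pathway lists and markers were chosen with earlier results of these data known. Named were all 8 genes, up to 5 called genes with the smallest p per pathway list and comparison, and the 3 genes most like each member. Results for some genes of these lists are not reported here.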

Additional observations from a re-analysis of the deposited data

Results flagged for a closer look

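Within each strain, the highest and lowest library of every gene was compared with the nearest other library by Dixon's test. Of 56 such groups 2 stood out, and chance alone gives about 1 in 20. In CAST/EiJ, Stra6 in the male hippocampus library titled low was the lowest, with 201 CPM (807 counts), while the other 5 libraries had 317 to 379.6 CPM. In NOD/ShiLtJ, Stra6 in the female hippocampus library was the highest, with 82.1 CPM (1685 counts), while the other 5 libraries had 37.4 to 51.5 CPM.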

How the results depend on the processing

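Single low values, such as those of Slc29a1 in female WSB/EiJ, rest on few counts, and the part of depth in them was not tested. Counts drawn down to the smallest library gave more calls among strains and by origin, region and tag than the full counts. No paired analysis was possible because the labels do not name the mouse, so regions were matched only by strain, sex and tag combined. The Slc16a1 difference of A/J and the Stra6 difference of CAST/EiJ were called under every alternative run. The cause of the changes below was not tested, except that single regions, male or high-titled libraries and sums per strain hold fewer samples.

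Genes called among strains numbered 1335 with DESeq2, 13526 with edgeR's legacy deviances, 1236 with counts drawn down, 474 in males, 186 in cortex and 184 in hippocampus. By origin they numbered 395, 6712, 342, 123, 40 and 68 in the same order, 136 in libraries titled high and 7 with counts summed per strain. By region they numbered 61 with DESeq2, 8023 with legacy deviances, 46 with covariates, 124 drawn down and 59 with strain, sex and tag combined. By tag they numbered 635, 8327, 560 and 501 in the order DESeq2, legacy, covariates and drawn down, 27 in cortex, 5 in hippocampus and 89 with the endothelial sum. By sex they numbered 10473 with legacy deviances, 539 with covariates, 65 with the rRNA-like share, 240 in cortex, 304 in hippocampus and 448 in libraries titled high.

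Of the 8 genes, 5 were called among strains without a filter, with legacy deviances and with covariates, 2 in cortex and 2 in hippocampus, and 3 to 4 without 1 library. By origin 2 were called with DESeq2, no or a stricter filter, legacy deviances, the rRNA-like share, counts drawn down, libraries titled high, the endothelial sum, or without 129S1/SvImJ, DBA/2J or WSB/EiJ, and 1 to 2 without 1 library. By origin 0 were called in cortex, in hippocampus, with sums per strain or without CAST/EiJ. By tag 2 were called with legacy deviances or covariates, and 0 in cortex, in hippocampus or with the endothelial sum.

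None of the values that changed sign was called. By region, Slc2a1 was -0.0045 with DESeq2 or its size factors, -0.025 with the rRNA-like share, -0.0044 drawn down and -0.081 in males, Slc19a3 -0.016 with covariates, -0.0033 drawn down and -0.094 in libraries titled high, Slc5a6 -0.025 with the rRNA-like share and -0.0077 with factors combined, Slc16a1 -0.0044 in males and Slc29a1 0.24 in libraries titled high. By tag with covariates, Slc5a6 was 0.034 and Stra6 -0.032. By sex, Stra6 was -0.043 with DESeq2 or its size factors, -0.055 drawn down and -0.12 in cortex, and Slc29a1 -0.0077 and -0.0071 with these, -0.23 with covariates, -0.63 in cortex and -0.19 in libraries titled high. By sex, Slc2a1 was 0.56 with the rRNA-like share and 0.029 in hippocampus, Slc16a1 0.23 and 0.057, Slc5a6 0.10 with that share and Slc19a3 0.045 in cortex. By origin, Slc16a1 was 0.19 without A/J and 0.19 without CAST/EiJ, Slc19a3 0.14 without CAST/EiJ, Slc29a1 0.058 and Slc23a2 -0.043 without WSB/EiJ, and Slc5a6 0.025 without DBA/2J and -0.24 to 0.00086 without 1 library.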
